A study of Mus musculus with 8 samples.

Results

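The 8 genes described here make the machinery that shows peptides from inside a cell on MHC class I molecules: the class I heavy chains H2-K1 and H2-D1, their light chain B2m, the peptide transporter subunits Tap1 and Tap2, the loading chaperone Tapbp (tapasin), and the immunoproteasome subunits Psmb8 and Psmb9. They were chosen by name, as every probe that the platform annotation gives to 1 of these symbols, which found all 8 genes on 17 of the 45281 probes of the array. The named probes of the array cover 19057 genes. Of the 17 probes, 15 passed a minimum intensity of 100 on at least 4 of the 8 arrays, and each of the 8 genes had at least 1 probe that passed. The 2 that did not are 1 of the 4 probes of H2-D1 and 1 of the 3 of B2m, which read at most 85.9 and 85.8 on any array, where the median probe read 86.2.

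RNA came from bone marrow macrophages, hybridised to Illumina beadchips. There were 4 libraries labelled VAV ko with the genotype vav1-/- (KO 1 to 4) and 4 labelled control with the genotype WT (WT 1 to 4), all given as C57BL/6. The mice were of both sexes and 7 to 12 weeks old, and no treatment is listed for either group. The labels do not say how the Vav1 allele was made, how the cells were grown, or whether libraries stand for separate mice, so the p-values rest on a spread between libraries that could be technical. The comparison asks how macrophages without Vav1, a guanine nucleotide exchange factor of blood cells, differ from wild-type macrophages.

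Class I presentation begins in the cytosol, where proteasomes cut proteins to peptides. In cells exposed to interferon-gamma, Psmb8, Psmb9 and Psmb10 take the place of the catalytic subunits Psmb5, Psmb6 and Psmb7. The Tap1-Tap2 transporter carries peptides into the endoplasmic reticulum, and tapasin holds an empty heavy chain with B2m beside it until a peptide fits. Macrophages use the same route to present peptides to CD8 T cells, and interferon raises most of its genes. Of the 8 genes, all but B2m lie on chromosome 17, within the major histocompatibility complex, and B2m lies on chromosome 2. Vav1 is also on chromosome 17.

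Promoter sequence is shown for the genes whose values are set against each other below. H2-K1 and H2-D1 are close copies whose probes with the highest mean lay on opposite sides of the other libraries in WT 4, B2m varied little over the libraries, and Psmb9 and Tap1 both had the libraries numbered 1 and 2 above those numbered 3 and 4. The sequences are from RefSeq, build GRCm38.p6, in windows of 250 bases before to 50 after each start. Windows were found for 7 of the 8 genes, 2 of them for H2-K1, and none was used for Tap2. Capitals mark letters searched on both strands: the kappa B motif GGGATTCCC, the interferon-stimulated response element GAAANNGAA, the CCAAT box (CCAAT, or ATTGG on the other strand) and TGACGC, a cAMP response element-like motif. No 2 of these overlapped in the stretches printed. The stretch of H2-K1 is chr17:34000359-34000457 on the minus strand, that of H2-D1 is chr17:35262924-35263022 on the plus strand, and that of B2m is chr2:122147548-122147638 on the plus strand. The last is chr17:34187331-34187555, which holds all 225 bases between the start of Psmb9 on the minus strand and the start of Tap1 on the plus strand, printed on the plus strand.
H2-K1: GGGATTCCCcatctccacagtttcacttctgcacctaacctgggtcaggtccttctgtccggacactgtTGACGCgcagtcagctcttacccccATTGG
H2-D1: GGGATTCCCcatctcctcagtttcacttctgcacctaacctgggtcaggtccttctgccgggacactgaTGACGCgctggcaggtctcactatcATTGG
B2m: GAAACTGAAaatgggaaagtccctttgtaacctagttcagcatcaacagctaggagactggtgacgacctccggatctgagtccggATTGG
Psmb9-Tap1: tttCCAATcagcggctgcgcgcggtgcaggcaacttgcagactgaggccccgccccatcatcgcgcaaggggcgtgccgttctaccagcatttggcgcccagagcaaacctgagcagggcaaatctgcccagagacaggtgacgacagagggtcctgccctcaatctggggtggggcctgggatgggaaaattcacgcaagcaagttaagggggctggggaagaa

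The 99-base stretches of H2-K1 and H2-D1 both run from the kappa B motif to the inverted CCAAT box, and 88 of their bases are identical without a gap. The kappa B letters stood in 116 of 32851 windows (0.353%), which belong to 112 genes, 11 of them on chromosome 17, among these H2-K1, H2-D1 and the class Ib genes H2-Q6 and H2-Q7. The letters GAAANNGAA stood in 8.56% of windows, and among those of the 8 genes only in that of B2m. Other spellings of the response element were not searched, so windows without these letters are not shown to lack one. CCAAT stood in 37.4% of windows and TGACGC in 7.4%. Between the starts of Psmb9 and Tap1 the search found 1 CCAAT box. A match is a description of the letters and not a site of binding.

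Before the results, 3 facts on the libraries bear on what follows. The Vav1 probe did not follow the labels: KO 1, KO 2, WT 1 and WT 2 had values of 1642 to 1825, and KO 3, KO 4, WT 3 and WT 4 had 267 to 384, so every direction below is that of the libraries labelled KO against those labelled WT. WT 4 stood apart, with correlations of 0.839 to 0.901 to the other 7 libraries, which correlated at 0.971 to 0.996 with each other, so values are also given without it. All 8 macrophage genes on the array were measured, with a summed intensity of 64559 to 70294 in the libraries labelled KO and 61604 to 79895 in those labelled WT, among them Adgre1 (F4/80) at 6583 to 8360 in the libraries labelled KO and 6026 to 11859 in those labelled WT. Of the marker lists, 1 of 8 dendritic cell genes on the array was measured (Itgax, 151 to 179 in the libraries labelled KO and 125 to 168 in those labelled WT), 2 of 5 of neutrophils, and 0 of 5 of T cells, 0 of 3 of B cells, 0 of 4 of NK cells and 0 of 5 of stromal cells. The T cell genes Cd3d and Cd8a read at most 85.4 and 85.5 on any array, and the dendritic cell genes Flt3 and Zbtb46 at most 92.8 and 89.7. Other genes of these lists that did not pass the filter reached higher values. The dendritic cell genes Siglech and Clec9a reached 188 and 140. The B cell genes Ms4a1, Cd79b and Pax5 reached 111, 108 and 108, and the T cell genes Cd3e and Cd4 reached 96.4 and 96.7.

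The heavy chain H2-D1, which presents peptides to CD8 T cells, was bright in 7 libraries and much dimmer in WT 4. Its probe with the highest mean read 7868, 7612, 6677 and 8087 in the libraries labelled KO 1 to 4, and 6088, 6677, 9026 and 1639 in WT 1 to 4. The values of the 2 labels overlap, and WT 4 lies below all others, at 0.22 times their mean. The second probe read 5960 to 8822 in the libraries labelled KO and 5185 to 7443 in WT 1 to 3, with 730 in WT 4, and the third read 1169 to 1780 and 1151 to 1825, with 474 in WT 4. All 3 kept probes of H2-D1 were thus lowest in WT 4, by different amounts, the second at 0.101 and the third at 0.313 times the mean of the other 7. Over those 7 libraries the first probe varied by 1.48-fold between its highest and lowest value.

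H2-K1, the other classical heavy chain of these mice, had no such drop. Its probe with the highest mean read 2410, 3108, 1681 and 2180 in the libraries labelled KO 1 to 4, and 2808, 1436, 2312 and 3576 in WT 1 to 4. WT 4 was the highest of the 8 here, at 1.57 times the mean of the others, and the labels overlap. The spread was wide without it too, with 2.16-fold between WT 2 and KO 2. The other 2 kept probes of H2-K1 lay near the filter: 1 read 108 to 144 in the libraries labelled KO and 93.1 to 133 in those labelled WT, with WT 4 the lowest, and the other 93.9 to 103 and 103 to 144, with WT 4 the highest. The 3 probes of this gene therefore disagree about WT 4. Class I heavy chain genes are close copies of each other, the probe sequences were not used here, and how far a probe also reads a related chain was not tested.

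B2m, the light chain that every class I heavy chain needs to leave the endoplasmic reticulum, was the gene of the 8 that varied least over the libraries. It read 15634, 14359, 14847 and 14722 in the libraries labelled KO 1 to 4, and 16929, 13207, 16782 and 14030 in WT 1 to 4. Highest and lowest differed by 1.28-fold, and WT 4 lay among the others. The second probe read 13762 to 15110 in the libraries labelled KO and 13073 to 15110 in those labelled WT, a 1.16-fold range. Both probes lay above 99.9% of all probes even in their lowest library, near the top of the scale. The coefficient of variation over 8 libraries was 8.67% and 5.16% for the 2 probes, against 33.6% for the first probe of H2-D1 and 29.2% for that of H2-K1. Tap2 was nearer to B2m, at 11.1%. Without WT 4 it was 8.78% and 5.03% for the 2 probes of B2m, 13.6% for H2-D1 and 25.8% for H2-K1, so much of the spread of H2-D1 came with WT 4.

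**Figure D1:**
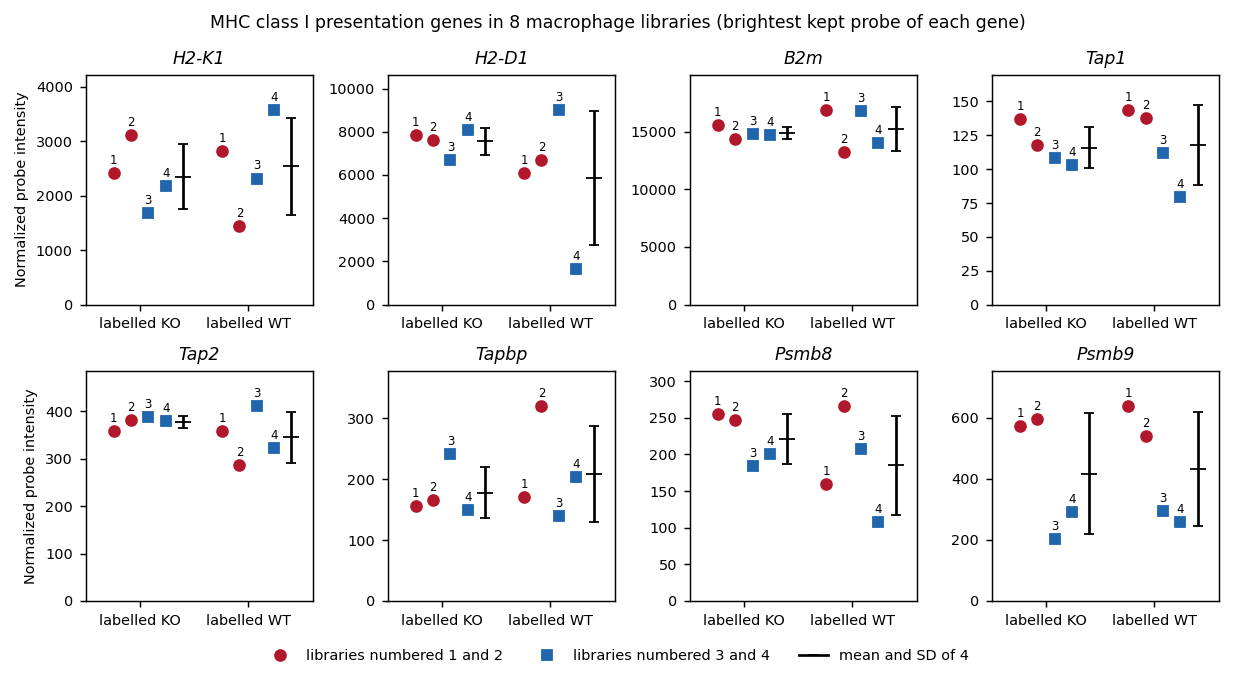
Normalized probe intensity (linear axis from 0) of the probe with the highest mean of each gene, in the 4 libraries labelled KO on the left and the 4 labelled WT on the right of each panel, with the replicate number above each point and the mean with its SD beside each group. Psmb9 is high in KO 1, KO 2, WT 1 and WT 2 (541 to 639) and low in KO 3, KO 4, WT 3 and WT 4 (203 to 294), while H2-D1 is low in WT 4 alone (1639).

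The immunoproteasome subunit Psmb9 (LMP2) split the libraries by their number and not by their label. Its single probe read 575, 597, 203 and 293 in the libraries labelled KO 1 to 4, and 639, 541, 294 and 258 in WT 1 to 4. Numbers 1 and 2 under either label were all above numbers 3 and 4, at 541 to 639 and 203 to 294. This is the order in which Vav1 divides the libraries, and the numbers have no stated meaning in the labels. Of the 2 measured neutrophil genes, S100a9 was also all above, at 104 to 124 in numbers 1 and 2 and 82.4 to 94.2 in numbers 3 and 4, while S100a8 overlapped, at 200 to 255 and 174 to 224. Of the 8 macrophage genes, 0 were all above and 1, Mertk, was all below, at 632 to 721 and 741 to 1228. Over all kept genes the shares were 4.13% and 3.7%. Without WT 4, 0 macrophage genes were all above and 3 all below, against 7.97% and 6.59% of all kept genes. The 3 are Mertk, Mrc1 (4347 to 5252 and 5680 to 6944) and Fcgr1 (384 to 537 and 562 to 584). Itgax overlapped, at 157 to 179 and 125 to 158. The part of these genes in the values of Psmb9 was not tested.

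Psmb8 (LMP7), its partner in the immunoproteasome, lies 2 genes away and did not follow it. Psmb8 read 255, 247, 184 and 200 in the libraries labelled KO 1 to 4, and 160, 266, 207 and 108 in WT 1 to 4. WT 1 had the second lowest value, so the numbers overlap as the labels do, and WT 4 was lowest at 0.496 times the mean of the others. The second probe of Psmb8 was dimmer, at 125 to 155 in the libraries labelled KO and 91.4 to 136 in those labelled WT, again with WT 4 lowest.

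Tap1, the transporter gene whose start faces that of Psmb9 across the 225 bases printed above, also divided the libraries by number, by a smaller margin. It read 137, 118, 108 and 103 in the libraries labelled KO 1 to 4, and 144, 138, 112 and 79.4 in WT 1 to 4. The libraries numbered 1 and 2 read 118 to 144 and those numbered 3 and 4 read 79.4 to 112, which do not overlap. This probe was dim: in WT 4 it lay above 15% of all probes, so the low values are near background. Tap2, the other subunit of the transporter, read 358, 381, 387 and 380 in the libraries labelled KO 1 to 4, and 359, 286, 411 and 323 in WT 1 to 4. Its libraries overlapped by label and by number, within a 1.44-fold range.

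Tapbp read 156, 165, 241 and 150 in the libraries labelled KO 1 to 4, and 170, 320, 139 and 203 in WT 1 to 4. The highest values were WT 2 and KO 3, and the labels overlap. Its second probe read 96.9 to 125 in the libraries labelled KO and 106 to 153 in those labelled WT, with WT 2 again the highest. Unlike H2-D1 and Psmb8, tapasin had 2 kept probes on which WT 4 lay among the other libraries.

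Between the labelled genotypes, none of the 8 genes passed the test. At an adjusted p under 0.05 in limma, 0 of the 15 kept probes were called, and of all 13479 kept probes 0% were called. At an unadjusted p under 0.05 in limma there were 0 of 8 genes, against 27 of 7982 kept genes. Counted by probe, there were 44 among all kept probes (0.326%). In 0 of the 8 genes did the 4 libraries of 1 label lie all above or all below those of the other, against 1.13% of 7982 kept genes. Of the 8 genes, 4 had a positive and 4 a negative log2 fold change, with a median of -0.0041, where all kept genes had a median of -0.038.

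H2-D1 had the highest log2 fold change of the 8 genes. Intensity averaged 7561 ± 620 (SD, n = 4) in the libraries labelled KO and 5858 ± 3086 (SD, n = 4) in those labelled WT. The log2 fold change in limma was 0.61 ± 0.46 (SE), with a 95% interval of -0.42 to 1.64 and an adjusted p of 0.795. Without WT 4 it was 0.075, with an interval of -0.25 to 0.40. The WT mean was then 7264 ± 1554 (SD, n = 3), so most of the difference between the labels came with that 1 library. The other 2 kept probes of the gene were at 1.0 and 0.58, and at 0.19 and 0.18 without WT 4.

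Psmb8 was at 0.37 ± 0.30 (SE), with means of 221 ± 34.7 (SD, n = 4) in the libraries labelled KO and 185 ± 67.4 (SD, n = 4) in those labelled WT and an adjusted p of 0.795 in limma. It was at 0.10 without WT 4. B2m averaged 14891 ± 537 in the libraries labelled KO and 15237 ± 1900 in those labelled WT (SD, n = 4 each). For B2m the interval was narrow, -0.31 to 0.26 around -0.025, and -0.31 to 0.19 without WT 4, and its second probe had the opposite sign at 0.026. Tap2 was at 0.15 (interval -0.17 to 0.47), with means of 377 ± 12.7 (SD, n = 4) in the libraries labelled KO and 345 ± 53.6 (SD, n = 4) in those labelled WT. Psmb9, whose libraries numbered 1 and 2 stood above 3 and 4 under each label, had means of 417 ± 199 (SD, n = 4) in the libraries labelled KO and 433 ± 186 (SD, n = 4) in those labelled WT, and its interval was accordingly wide, -1.10 to 0.90. H2-K1 was at -0.070, with means of 2345 ± 593 and 2533 ± 897 (SD, n = 4 each) in the libraries labelled KO and WT, Tap1 at 0.017, with 116 ± 14.9 and 118 ± 29.4, and Tapbp at -0.20, with 178 ± 42.6 and 208 ± 78.9. Those of H2-K1 and Tap1 changed sign without WT 4, to 0.12 and -0.21. These intervals leave room for differences of either sign, and an adjusted p above the threshold does not show that the labels are alike.

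**Figure D2:**
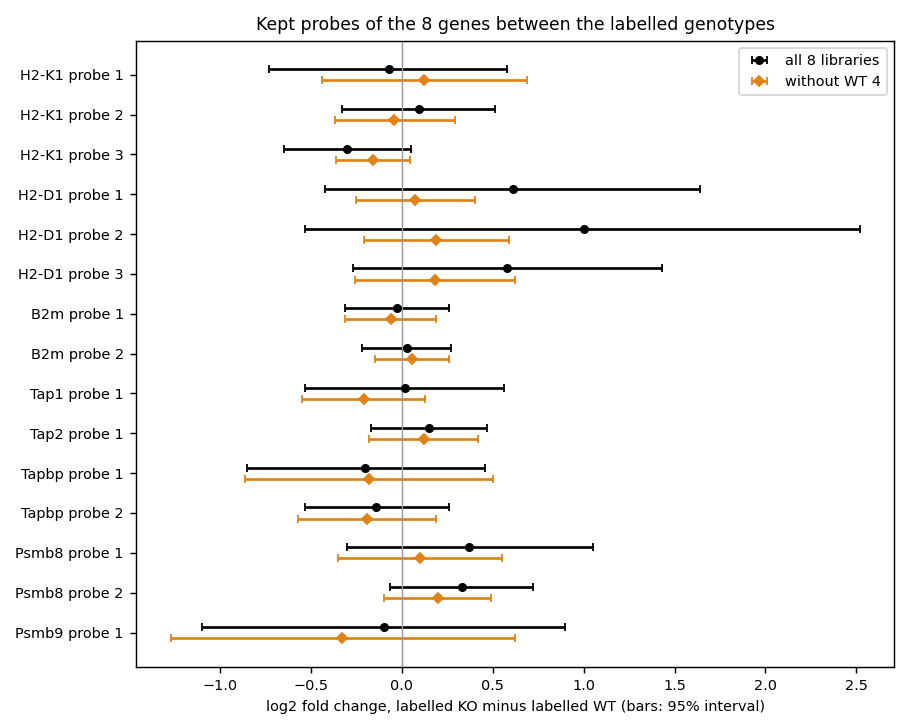
Log2 fold change of the libraries labelled KO over those labelled WT for the 15 kept probes, with 95% intervals from limma, over all 8 libraries (black circles) and without WT 4 (orange diamonds). Every interval includes 0, and the 3 probes of H2-D1 move from 0.58 to 1.0 with WT 4 to 0.075 to 0.19 without it.

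The wider pathway was read from a list of 58 genes, of which 56 were on the array and 35 measured. It has 24 measured partners and regulators and 11 measured class Ib or class I-like genes. Between the labels 0 of the 35 were called higher and 0 lower by limma, and 0 had an unadjusted p under 0.05, against 27 of 7982 kept genes. The log2 fold changes of the 35 were positive in 19 and negative in 16, with a median of 0.047, and 0.012 without WT 4. For the 11 class Ib genes the median was 0.38, and 0.012 without WT 4.

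Over the 24 measured partners and regulators, WT 4 was below the other 7 libraries in 11 and above them in 9. Of all kept genes it was below in 34.8% and above in 44.1%. Those above include Irf2, at 3118 against 1612 to 2273, and Nfyc, at 1519 against 929 to 1156. Among those below were the constitutive proteasome subunits that the immunoproteasome subunits replace. Psmb5 read 500 to 556 in the libraries labelled KO and 426, 524, 563 and 84.9 in WT 1 to 4. Psmb6 read 3315 to 3663 in the libraries labelled KO and 3395, 3375, 3757 and 794 in WT 1 to 4, and Psmb7 read 1708 to 1918 against 1761, 2068, 1972 and 620 on its probe with the highest mean. One of the 4 probes of Psmb7 went the other way in WT 4, with 1078 against 778 to 868 in the other libraries. Psmb10, the immunoproteasome counterpart of Psmb7, read 716 to 750 in the libraries labelled KO and 689 to 846 in those labelled WT, and was 825 in WT 4. Log2 fold changes were 0.82 for Psmb5 and 0.56 for Psmb6, and 0.081 and 0.013 without WT 4, and that of Psmb10 was -0.078.

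Pdia3, a disulfide isomerase that works beside tapasin, had the same shape, at 3547 to 4565 in the libraries labelled KO and 3074, 4048, 4228 and 890 in WT 1 to 4. Calr, a chaperone of the same loading complex, read 838 to 1554 in the libraries labelled KO and 899 to 1640 in those labelled WT, with WT 4 inside that range. Psme1, a subunit of the proteasome activator PA28, read 1231, 1292, 983 and 1025 in the libraries labelled KO 1 to 4, and 1311, 1369, 878 and 895 in WT 1 to 4. Its numbers 1 and 2 lay above 3 and 4, and so they did on its second kept probe. Over the 24 measured partners and regulators this held for 1, Psme1, and the reverse for 0, which is near the 4.13% and 3.7% of all kept genes. Without WT 4 the counts were 1 above and 2 below, Tapbpl and Ifngr1, against 7.97% and 6.59%.

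Among the regulators, Nlrc5, the transactivator of class I genes, read 154 to 174 in the libraries labelled KO and 139, 158, 156 and 103 in WT 1 to 4. Irf1, a transcription factor of the interferon response, read 890 to 976 in the libraries labelled KO and 814 to 1109 in those labelled WT. Ifngr1, the ligand-binding chain of the interferon-gamma receptor, read 572 to 762 in the libraries labelled KO and 672, 684, 730 and 259 in WT 1 to 4, and Ifngr2, its other chain, 177 to 213 and 235, 167, 220 and 393. On these probes the 2 chains lay on opposite sides in WT 4, while on the other 2 kept probes of Ifngr2 WT 4 lay among the other libraries.

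Among class Ib genes, H2-T23, which encodes Qa-1 and is read by NK cell receptors, read 1703, 1672, 1302 and 1185 in the libraries labelled KO 1 to 4, and 1455, 1450, 1418 and 235 in WT 1 to 4. H2-M3, which presents formylated peptides, read 368 to 441 in the libraries labelled KO and 349, 404, 378 and 187 in WT 1 to 4. H2-Q5, a transcribed pseudogene in RefSeq, read 2221 to 2473 in the libraries labelled KO and 1748, 2159, 2648 and 702 in WT 1 to 4. H2-Q7 read 503 to 651 and 452, 466, 690 and 214. These 4 were lowest in WT 4, as H2-D1 was, and H2-T10 and H2-Q1 were highest there, at 318 and 158.

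Over the class I chains, WT 4 lay outside the range of the other 7 on every kept probe. It was below them on 14 of 18 probes and above them on 4, while over all kept probes it was below on 41.1% and above on 39.7%. The 18 probes stand for 11 genes, some of them near-identical, so they are not taken as independent. Not every gap was clear: H2-M2 read 92.5 in WT 4 and 92.6 in the next lowest library. The 2 probes of H2-Q6 and that of H2-Q8 read 83.7, 80.8 and 82.4 in WT 4, below the median probe at 86.2. For H2-K1 and H2-D1 alone it was below on 4 of 6 probes and above on 2, and for the class Ib chains below on 10 of 12. Counted by gene over the 8 presentation genes, WT 4 was below the other 7 in 3 (H2-D1, Tap1 and Psmb8) and above in 1 (H2-K1), where 34.8% of kept genes were below and 44.1% above. It was under 0.5 times the mean of the other 7 in 2 of the 8, H2-D1 and Psmb8, against 9.15% of kept genes. Of macrophage genes in WT 4, Csf1r read 2051 and Lyz2 19319, against 2748 to 5218 and 11685 to 16782 in the other 7. In bulk RNA, fewer cells of a type and less RNA per cell cannot be told apart, and the part that the state of this library has in the low class I values was not tested.

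**Figure D3:**
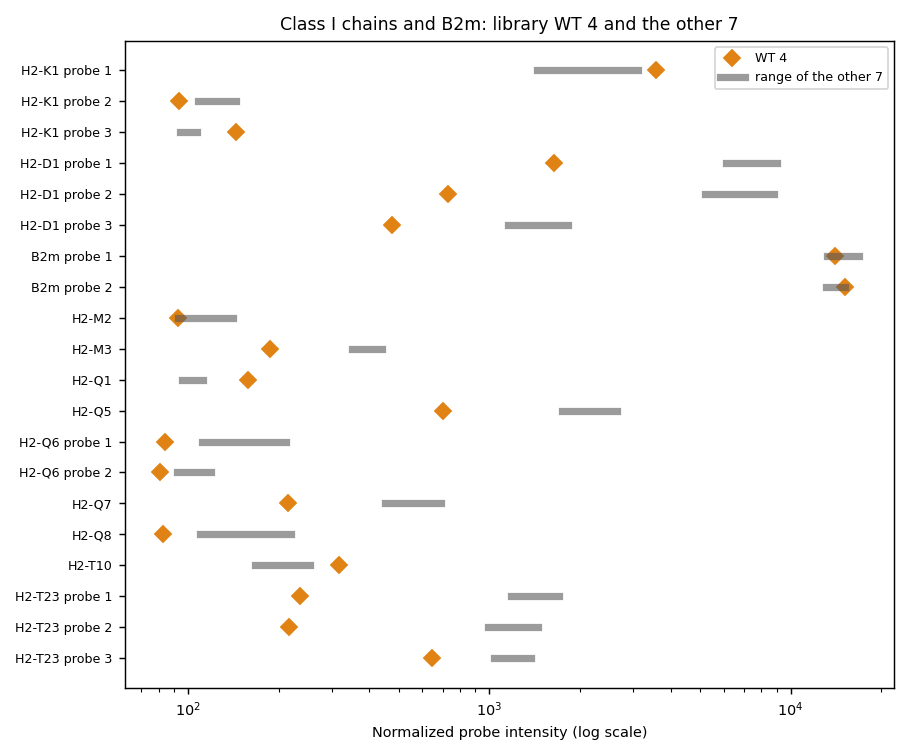
Normalized intensity (log axis) of the kept probes of class I heavy chain genes and B2m in WT 4 (orange diamonds) and the range over the other 7 libraries (grey bars), probes of a gene ordered by mean. WT 4 lies below the other libraries on 14 of the 18 heavy chain probes, above them on 4, and within their range on both B2m probes.

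The division by number was counted over all genes. The libraries numbered 1 and 2 lay all above those numbered 3 and 4 in 2 of the 8 presentation genes, Psmb9 and Tap1, and in 330 of 7982 kept genes (4.13%). They lay all below in 0 of the 8 and in 3.7% of kept genes. Without WT 4 the counts were the same 2 and 0 of 8, against 7.97% and 6.59% of kept genes. This order was looked at because Vav1 and earlier results pointed to it, so no test is given, and with 8 genes a count of 2 is small. The counts rest on the probe of each gene with the highest mean, and other kept probes could differ. The second probe of H2-K1 had numbers 1 and 2 all above, at 130 to 144 and 93.1 to 113. Without WT 4 the second probe of Psmb8 had them all below, at 109 to 127 and 136 to 155.

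Psmb9 and Tap1 lie next to each other in a stretch of the complex where several genes had the same order. From Tapbp to H2-D1, the outermost of the 7 genes on chromosome 17, RefSeq lists 132 genes, of which 52 were kept. In 16 of these 52 (30.8%) the libraries numbered 1 and 2 were all above 3 and 4, and in 1, Msh5, all below. On the rest of chromosome 17 the numbers 1 and 2 were all above in 22 of 373 kept genes (5.9%), and on other chromosomes in 292 of 7550 (3.87%). Without WT 4 the shares were 32.7%, 11.3% and 7.64%.

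In gene order, Psmb9, Tap1, Psmb8 and Tap2 follow H2-DMb1 and come before the class II chains H2-Ab1 and H2-Aa. H2-DMa and H2-DMb1, which edit the peptides of class II molecules, had the order on one side, though H2-DMb2 between them did not, and H2-Ab1, H2-Aa and H2-Eb1, which form the class II molecules, on the other. H2-Aa read 1571 to 1804 in the libraries numbered 1 and 2 and 80.4 to 86.7 in those numbered 3 and 4, a wider gap than that of Psmb9. Psmb8 and Tap2 stand between Tap1 and H2-Ab1 and did not have the order. Nor did H2-K1, Tapbp and H2-D1 on their probes with the highest mean, though the second probe of H2-K1 had it. Genes with no role in antigen presentation also had it, among them Abhd16a, a lipid hydrolase, and Neu1, a sialidase.

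**Figure D4:**
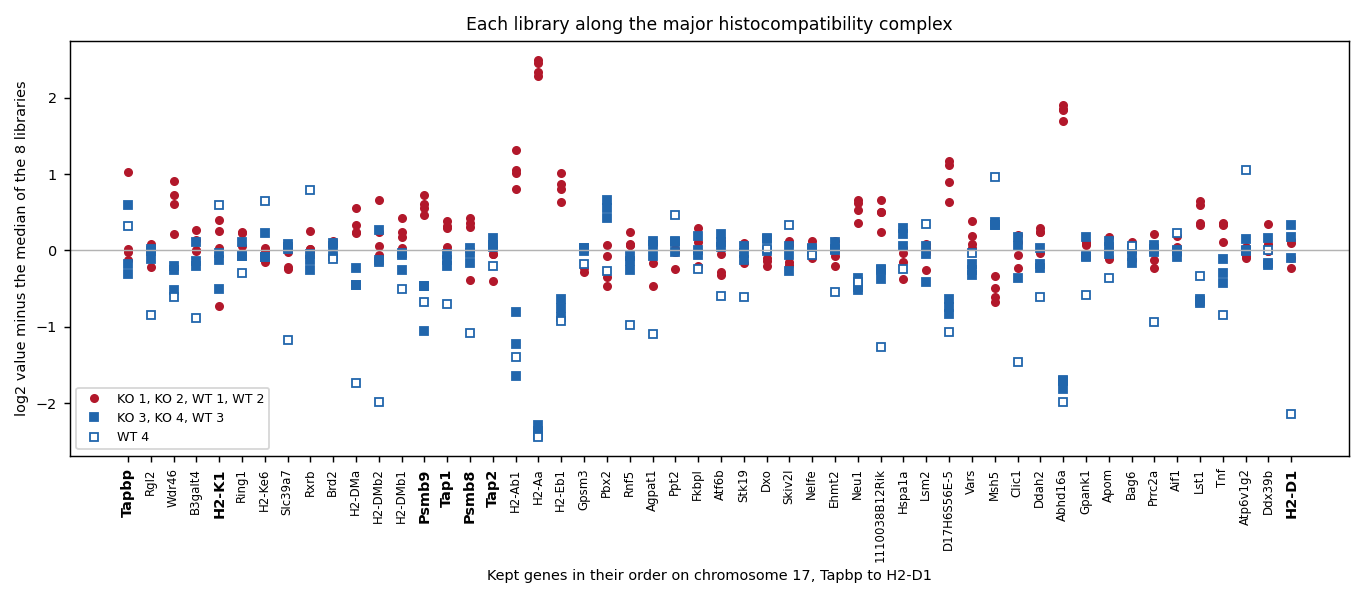
Log2 value of each library minus the median of the 8, for the 52 kept genes from Tapbp to H2-D1 in their order on chromosome 17, with the 7 presentation genes in bold. Filled circles are KO 1, KO 2, WT 1 and WT 2, filled squares KO 3, KO 4 and WT 3, and open squares WT 4, and in 16 of the 52 genes all circles lie above all squares.

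Of the 11 measured class Ib genes, 2 had the numbers 1 and 2 above 3 and 4 and 0 below, against 4.13% and 3.7% of all kept genes. H2-M2 had the numbers 1 and 2 at 116 to 141 and the numbers 3 and 4 at 92.5 to 98.6, and H2-T23 had them at 1450 to 1703 and 235 to 1418 on its probe with the highest mean. On the other 2 kept probes of H2-T23 the numbers overlapped, at 1035 to 1440 and 217 to 1452, and at 1034 to 1379 and 645 to 1231. Leaving out WT 4, the counts were 2 above and 3 below, against 7.97% and 6.59%. The 3 are H2-Q6, H2-Q7 and H2-Q8, with H2-Q6 at 111 to 126 in KO 1, KO 2, WT 1 and WT 2 and 202, 212 and 190 in KO 3, KO 4 and WT 3. The second kept probe of H2-Q6 did not have this order, at 97.6 to 119 and 91.7 to 114. H2-Q6 and H2-Q8 read 83.7 and 82.4 in WT 4, below all other libraries. The genes of the H2-Q group are near-identical in places, so their probes are not taken as independent.

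Of 9 measured genes of an interferon response list, the numbers 1 and 2 were all above 3 and 4 in 0 and all below in 2, Gbp3 and Igtp, against 4.13% and 3.7% of all kept genes. With 9 genes, a count of 0 is near the 4.13%, and a count of 2 is small. On its probe with the highest mean, Gbp3, a guanylate-binding GTPase, read 212 to 233 in the numbers 1 and 2 and 239 to 290 in 3 and 4, and Igtp, an immunity-related GTPase, 228 to 260 and 270 to 318. Cxcl9 and Cxcl10, chemokines of that response, read at most 84.5 and 93.5 on any array and were not measured. Between the labels the 9 genes had a median log2 fold change of -0.034 and 0 calls, and their summed intensity was 7959 to 9674 in the libraries labelled KO and 7998 to 11360 in those labelled WT, with 11360 in WT 4. Most of this sum was the gene Irgm1, at 5450 to 8317 over the libraries and 8317 in WT 4. By gene, WT 4 was the highest library in 3 of the 9 and the lowest in 1, Irf7, at 83.8.

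The 8 genes differed in how alike their values were over the libraries. Over all 8 libraries the presentation gene most like H2-D1 was Psmb8 (Pearson r = 0.849 of log2 values), and the one most like Psmb9 was Tap1 (r = 0.766), while the highest r of H2-K1 with any of the others was 0.263, with B2m. Without WT 4 the r of Psmb9 and Tap1 was 0.836, that of H2-K1 and B2m was 0.561, and that of Psmb8 with any of the others was at most 0.357. Among all kept genes, the closest to Psmb9 was Cd48 (r = 0.984), a surface ligand of leukocytes, and to Tap1 Mrps18a (r = 0.987), a mitochondrial ribosomal protein. The closest to H2-K1 was Pcna (r = 0.986), the sliding clamp of DNA replication, to H2-D1 Kpna2 (r = 0.997), an importin, and to B2m Farsa (r = 0.879), a tRNA synthetase subunit. The closest to Tap2 was Cyb5a (r = 0.958), to Tapbp 2810025M15Rik (r = 0.981), and to Psmb8 Pmf1 (r = 0.976). Over the 7 libraries without WT 4 the closest gene was another in 7 of the 8 cases, namely Rps3a1 for H2-K1, Ifi204 for H2-D1, Bcs1l for B2m, H3c4 for Tap2, Gpn3 for Tapbp, Foxp1 for Psmb8 and Ap1s3 for Psmb9, and it was again Mrps18a for Tap1 (r = 0.975). These are descriptions over 8 or 7 arrays that share WT 4 or the division by number, each picked as the highest over all kept genes. Some of the closest genes were dim, where the median probe read 86.2. Farsa read 88.8 to 108, Pmf1 82.1 to 114, Ap1s3 86.7 to 108 and Kpna2 78.7 to 258. Others were brighter, among them Pcna at 766 to 2002, Cyb5a at 2767 to 3470 and Mrps18a at 363 to 489. For H2-D1, r was over 0.95 with 405 genes with WT 4 and with 6 without it.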

How the data were processed

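For 8 arrays, the deposited values are probe intensity, not on a log scale, with the lowest value, quartiles, median and highest value (68.1, 86.2 and 26278 for lowest, median and highest) shared by all 8 columns, as after quantile normalization. RNA was extracted with Trizol, cleaned on columns and labelled with biotin, per the labels' protocols. As for software, it was not given in the sources used here. Another table holds 8 signal columns whose names match no label and which were not used. Genes were named from the platform annotation (34885 probes with 1 symbol, 18 with several, 10378 with none), and the RefSeq update changed 0 symbols.

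Background was corrected in R 4.3.3 with limma 3.58.1 (normexp, offset 50) before taking log2. The log2 fold change of Psmb8, a dim probe, was 0.37 with this offset, 0.51 with an offset of 16 and 0.32 without correction. That of Tapbp was -0.20, -0.24 and -0.18. For these genes the larger offset thus gave values nearer 0 than the smaller one, but not nearer than no correction. Kept probes read at least 100 on at least 4 arrays (13479 probes, 7982 genes). A gene is given by its kept probe with the highest mean, and intensities of different probes are not compared. The labels were compared with lmFit and eBayes, with Benjamini-Hochberg adjustment over all kept probes. The fit was also run on simulated data, and no result given here rests on that run. All 8 genes are named by rule, and so are the closest gene of each by Pearson r and measured genes of the pathway list. H2-Aa, H2-Ab1, H2-Eb1, H2-DMa, H2-DMb1, H2-DMb2, Msh5, Abhd16a and Neu1, and the markers singled out from their lists, were named after their values were seen. The genes, the lists and the settings were chosen with earlier results of these data known. Precision is limited by the small number of arrays. Figures were drawn with matplotlib 3.10.9.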

Additional observations from a re-analysis of the deposited data

Results flagged for a closer look

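In groups of 4 libraries, 1 library stood apart from the other 3 by more than the 95% critical value of Dixon's test in 4 of 30 sets of values (15 kept probes, 2 labels), where chance gives about 1 in 20. The third probe of H2-K1 read 103 in KO 2 against 93.9 to 94.8 in the other libraries of its label, and 144 in WT 4 against 103 to 107. The third kept probe of H2-D1 read 1169 in KO 3 against 1688 to 1780. The first probe of Tapbp read 241 in KO 3 against 150 to 165. The low values of H2-D1 in WT 4 were not among them.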

How the results depend on the processing

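Under 17 alternatives (background offset, no correction, the filter, median centring, the variance model, array weights, the replicate block, an adjusted p under 0.10, and each library left out) 0 probes were called between the labels in limma, with 9 to 938 at an unadjusted p under 0.05 and a lowest adjusted p of 0.505. Of the pathway list 0 genes were called under each alternative that kept the same threshold, and its median log2 fold change stayed between 0.0064 and 0.083. With array weights H2-K1 was at 0.032 and Tap1 at -0.16, both with the sign turned, and the median of the 2 probes of B2m was at 5.1e-05. In the other 68 of 71 values the sign held. Tap1 could not be given at a minimum of 150, which its probe does not pass. Leaving out 1 library turned the sign in 12 of 64 values, with ranges of -0.32 to 0.12 for H2-K1, 0.075 to 0.90 for H2-D1, -0.091 to 0.028 for B2m, -0.21 to 0.15 for Tap1, 0.058 to 0.25 for Tap2, -0.39 to 0.058 for Tapbp, 0.10 to 0.60 for Psmb8 and -0.33 to 0.22 for Psmb9. The causes were not tested.

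Same-numbered libraries of the 2 labels did not deviate together throughout (correlations of deviations of 0.463, -0.172, 0.137 and 0.131 for the numbers 1 to 4), so the number was not taken as a pairing. With the replicate block 0 probes were called, the log2 fold change of H2-D1 was 0.61, and no sign changed. The counts of genes divided by number without WT 4 were added after seeing the data. On the probe of each gene with the highest mean they gave 2 above and 0 below among the 8 genes, as with WT 4. Dim probes, near the median intensity of 86.2, limit what can be said of Tap1 and of the weaker probes of H2-K1, Tapbp and Psmb8.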
